A study of Mus musculus with 12 samples.

Results

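The 54 small nucleolar and Cajal body RNA genes described here were measured in whole kidneys of 12 female mice, 1 array per mouse. They are all genes whose symbol begins with Snora, Snord or Scarna and which have a probe set annotated with that symbol alone. Where a gene had several such probe sets, the one with the highest mean over the 12 arrays was used, a choice that does not look at genotype, so that probe sets were selected on mean signal alone. They make up 54 of the 19934 genes on the arrays, with 20 of the H/ACA class (Snora), 31 of the C/D class (Snord) and 3 of the Cajal body class (Scarna). The groups were 4 mutants without Mut that carry a transgene (genotype Mut-/-;TgINS-Alb-Mut), 4 heterozygotes (Mut+/-) and 4 wild-type mice (Mut+/+). All were of the C57BL/6 background and had eaten a high-protein diet for 2 months, so a mouse on another diet is not among the controls. Mut, now named Mmut, encodes methylmalonyl-CoA mutase, whose loss causes methylmalonic acidemia. As background, the transgene expresses Mut from the albumin promoter, which is active in liver. In the labels it is a feature of the mutants alone, and what it does and what the missing alleles do cannot be told apart.

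Small nucleolar RNAs are short, stable noncoding RNAs that work as guides inside protein particles. H/ACA RNAs pair with ribosomal RNA and direct the conversion of uridine to pseudouridine by the dyskerin complex, while C/D RNAs direct ribose methylation by the fibrillarin complex, and a few members of each class act in the cleavage of the ribosomal precursor instead. Cajal body RNAs do the same work on the small nuclear RNAs of the spliceosome. In mammals most of them are cut from introns of host genes, many of which encode ribosomal proteins or translation factors, and a few have promoters of their own.

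Mmut was 2.18 lower on the log2 scale in mutants than in wild-type mice (limma log2 fold change -2.18, adjusted p = 1.4e-10), the direction of the genotype labels. Array medians lay between 7.17 and 7.23. Of 9 kidney markers 2 fell in mutants against wild-type mice and 0 rose, beside 6.69% and 2.96% of all genes. The falls were in Kap (log2 fold change -2.65, limma adjusted p = 0.000405) and Slc12a3 (-0.34, limma adjusted p = 0.00878). The median change of the 9 was -0.01. The summed level of the list, which takes in the large fall of Kap, was 15.36 to 15.60 in mutants. It was 15.75 to 15.84 in heterozygotes and 15.79 to 15.82 in wild-type mice. Mutant replicate 3 stood apart. It carried transcripts of adrenal steroid synthesis, with Cyp11b1 at 12.65, Cyp21a1 at 11.27, Star at 11.99 and Cyp11a1 at 10.61 on the log2 scale. On the other 11 arrays these 4 markers were at most 6.58, 6.12, 6.91 and 5.66. The summed adrenal level was thus 7.94 to 13.83 in mutants, 8.02 to 8.39 in heterozygotes and 7.92 to 8.18 in wild-type mice. Endothelial markers fell in 2 of 4 cases in mutants against wild-type mice, beside 6.69% of all genes. These were Emcn (log2 fold change -0.62, limma adjusted p = 0.0143) and Cdh5 (-0.38, limma adjusted p = 0.0226). Pecam1 (-0.26) and Kdr (-0.22) did not pass and also had changes below 0. The summed endothelial level was 11.11 to 11.66 in mutants, 11.697 to 11.999 in heterozygotes and 11.85 to 12.13 in wild-type mice. Of 5 leukocyte markers 1 fell, Csf1r (log2 fold change -0.64, limma adjusted p = 0.0171), beside 6.69% of all genes. The other 4 did not pass and had changes above 0, with Ptprc at 0.18, Cd3e at 0.07, Cd79a at 0.58 and Adgre1 at 0.06. The 1 erythroid, 3 fat, 3 neuron and 4 adrenal markers had 0 calls by limma in mutants against wild-type mice. Of these 1, in the fat list, had an unadjusted p under 0.05, as had 4867 of all 19934 genes. In whole tissue, fewer cells of a type and less RNA per cell cannot be told apart, and the part of cell makeup in the results below was not tested. The counts of small RNAs called in mutants against wild-type mice and against heterozygotes are given with and without mutant replicate 3.

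In mutant against wild-type kidneys 21 of the 54 genes rose and 0 fell by limma at an adjusted p under 0.05, while 2.96% of all genes rose and 6.69% fell. An unadjusted p under 0.05 in either direction was found for 30 of the 54, and for 4867 of all 19934 genes. The rises took in 12 of 20 H/ACA genes, 7 of 31 C/D genes and 2 of 3 Cajal body genes. The median log2 fold change was 0.39 for H/ACA, 0.09 for C/D and 0.29 for Cajal body genes, beside 0.004 for all genes tested. Without mutant replicate 3 the counts were again 12, 7 and 2, of which 19 genes were called in both fits, and the medians were 0.41, 0.14 and 0.27, beside 2.52% of all genes rising. Without it Snora62 was no longer called (adjusted p = 0.0867) and Snora21 was (adjusted p = 0.0453), and in the C/D class Snord85 was no longer called and Snord47 was (adjusted p = 0.0492). All 4 mutants lay above all 4 wild-type mice for 12 H/ACA, 5 C/D and 2 Cajal body genes, against 5.35% of all genes. The difference between the classes was not tested, because the members were chosen with results of these data known.

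The class level of each mouse is the median, over the genes of a class, of each gene's log2 value minus its own mean over the 12 arrays. For H/ACA genes it was 0.22, 0.19, 0.10 and 0.22 in the mutants, 0.06, -0.05, 0.05 and -0.01 in the heterozygotes, and -0.19, -0.18, -0.25 and -0.20 in the wild-type mice. The 3 genotypes did not overlap, and the mutant nearest the heterozygotes was replicate 3. For C/D genes the mean was 0.10 ± 0.04 in mutants, -0.05 ± 0.03 in heterozygotes and -0.04 ± 0.07 in wild-type mice (SD, n = 4 each). Here the mutants were above both other genotypes, which overlapped each other. The Cajal body genes averaged 0.14 ± 0.06 in mutants, -0.05 ± 0.11 in heterozygotes and -0.15 ± 0.02 in wild-type mice (SD, n = 4 each). The mutants were above the wild-type mice, but heterozygotes overlapped both. Mutant replicate 2 (0.04) was below heterozygote replicate 3 (0.08), and heterozygote replicate 4 (-0.18) was below every wild-type mouse.

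**Figure D1:**
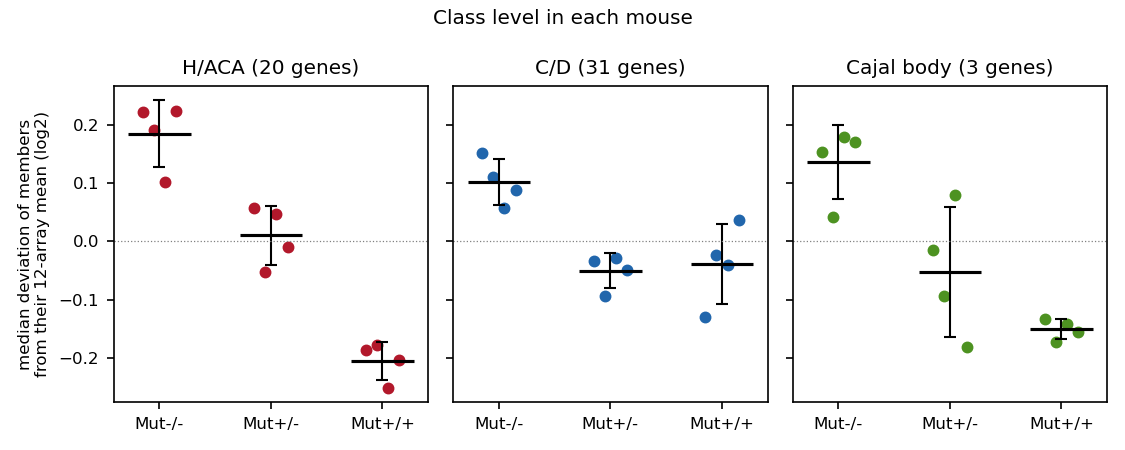
Median deviation of the H/ACA, C/D and Cajal body genes from their own mean over 12 arrays (vertical axis, log2), 1 point per mouse, with the mean (line) and SD (bar) of each genotype. The H/ACA mice separate by genotype, with mutants at 0.10 to 0.22 and wild-type mice at -0.25 to -0.18, while C/D heterozygotes and wild-type mice overlap.

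Among the H/ACA genes Snora33, a predicted pseudouridylation guide for ribosomal RNA, changed most in mutants against wild-type mice. Its log2 signal was 8.61, 8.61, 8.50 and 8.63 in mutants, 8.24, 7.72, 7.98 and 7.86 in heterozygotes, and 7.46, 7.41, 7.17 and 7.22 in wild-type mice. The 3 genotypes did not overlap, and the mutants were 2.42-fold above wild type (log2 fold change 1.27, SE 0.10, limma adjusted p = 1.57e-05). Snora44, which lies within the noncoding host Snhg12, was at 10.24, 9.72, 9.72 and 9.61 in mutants, at 9.09, 9.21, 9.20 and 9.02 in heterozygotes and at 8.88, 8.68, 8.75 and 8.18 in wild-type mice. Again no array crossed into another genotype, with a 2.30-fold rise over wild type (log2 fold change 1.203, SE 0.15, limma adjusted p = 0.000446). Snora31, within Tpt1, the gene of the translationally controlled tumour protein, was at 8.27, 8.50, 8.57 and 8.32 in mutants, 8.03, 8.04, 8.11 and 8.04 in heterozygotes and 7.88, 7.65, 7.72 and 7.89 in wild-type mice. It was the last of the H/ACA genes in which the 3 genotypes lay fully apart (log2 fold change of mutant over wild type 0.63, SE 0.07, limma adjusted p = 0.000332).

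In other H/ACA genes the heterozygotes overlapped the mutants. Snora74a, known as U19 and held by the noncoding host Snhg4, was at 10.44, 10.29, 10.46 and 10.68 in mutants, 10.57, 9.95, 10.41 and 10.37 in heterozygotes and 9.93, 9.63, 9.29 and 9.07 in wild-type mice. The wild-type mice were all below the others (mutant over wild type 1.98-fold, log2 fold change 0.99, SE 0.17, limma adjusted p = 0.00305). Snora75, within the nucleolin gene Ncl, was at 7.14, 6.96, 7.41 and 7.19 in mutants, 7.28, 6.45, 6.99 and 7.08 in heterozygotes and 6.67, 6.34, 6.13 and 5.93 in wild-type mice. Its mutants were apart from wild type (log2 fold change 0.91, SE 0.17, limma adjusted p = 0.00639), and heterozygote replicate 2 lay within the wild-type range. Snora30, within the chromatin remodeller gene Srcap, was at 8.20, 8.37, 8.30 and 8.43 in mutants, 8.32, 7.82, 8.16 and 7.83 in heterozygotes and 7.57, 7.65, 7.40 and 7.59 in wild-type mice, with mutants and heterozygotes all above wild type (log2 fold change of mutant over wild type 0.77, SE 0.10, limma adjusted p = 0.000728).

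Of the remaining risers Snora69, within the ribosomal protein gene Rpl39, had a log2 fold change of 0.64 in mutants against wild-type mice (limma adjusted p = 0.0018). Snora20, within the chaperonin gene Tcp1, had 0.56 (limma adjusted p = 0.0191), with mutants at 6.96 to 7.34, heterozygotes at 6.81 to 7.14 and wild-type mice at 6.18 to 6.94. These 8 are the largest H/ACA rises. Chosen after their values were seen, the other 4 called genes were Snora70 in Rpl10 (0.52), Snora62 in Rpsa (0.46), Snora73b in Snhg3 (0.33) and Snora7a in Rpl32 (0.29). Snora73a and Snora73b, also called U17, act in the cleavage of the precursor of small-subunit ribosomal RNA. Snora73a had a log2 fold change of 0.31 (limma adjusted p = 0.0513), so the pair fell on either side of the threshold with nearly the same change.

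The H/ACA genes that did not pass ranged from a log2 fold change of 0.31 in Snora73a to -0.26 in Snora3, mutant against wild type. Snora52, the H/ACA gene with the highest mean signal, was at 12.30 to 12.46 in mutants, 12.29 to 12.36 in heterozygotes and 12.32 to 12.45 in wild-type mice (95% interval of the log2 fold change -0.12 to 0.11). Snora2b, with the lowest mean signal, was at 6.06 to 6.21 in mutants and 6.05 to 6.27 in wild-type mice (interval -0.16 to 0.09), and its heterozygotes lay within the wild-type range. Signals of different probe sets do not rank the RNAs by amount. Both genes thus held the 3 genotypes within one range, and neither interval reaches the smallest called rise of 0.28, that of Snord15a. Snora3, within the ribosomal protein gene Rpl27a, was at 10.63 to 11.01 in mutants and 10.64 to 11.44 in wild-type mice, which spread the most, and its heterozygotes lay within the mutant range.

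**Figure D2:**
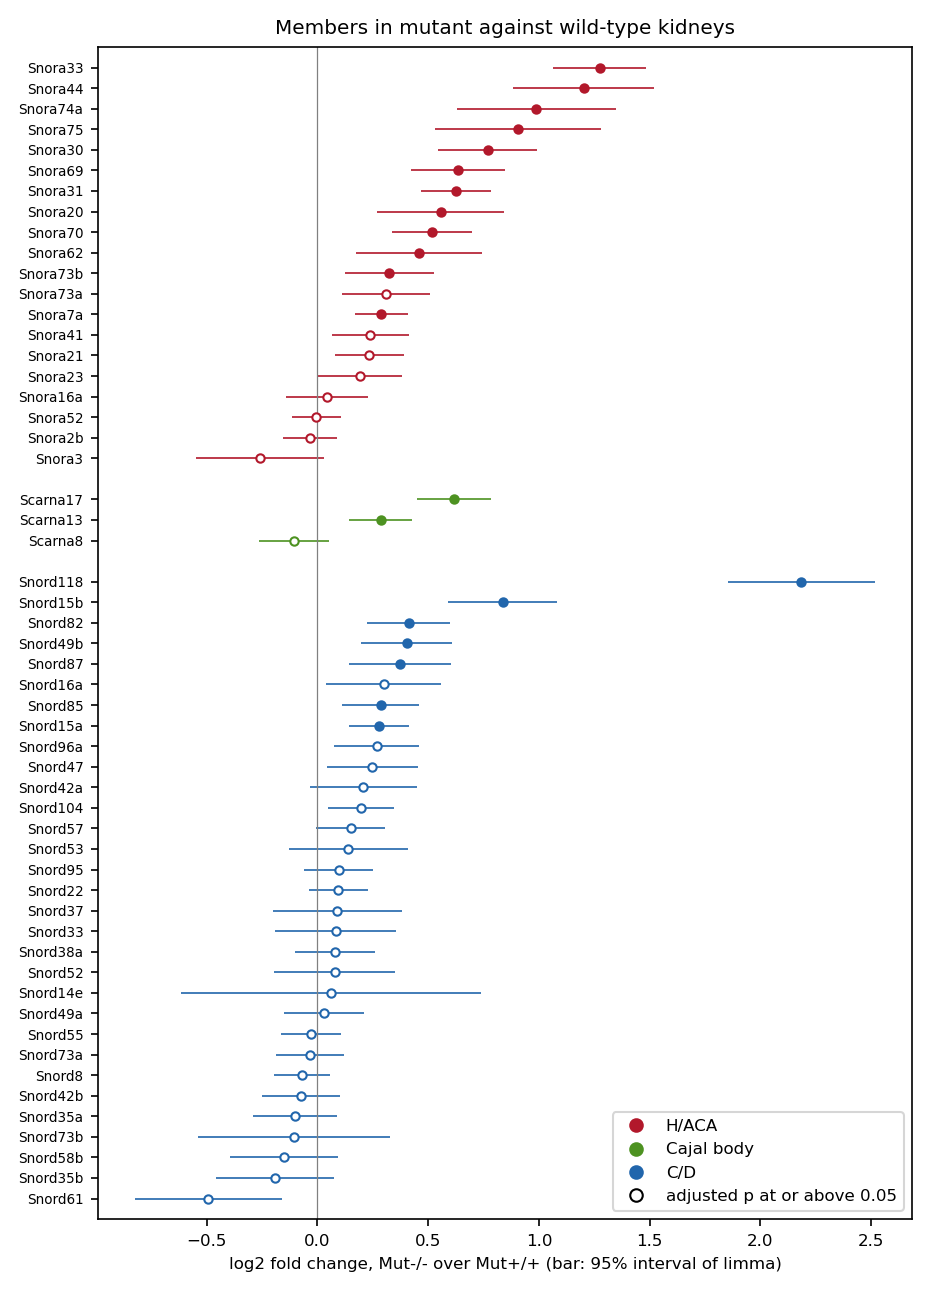
Log2 fold change of mutant over wild-type kidneys for each of the 54 genes (points) with the 95% interval of limma (bars), by class, filled where the adjusted p was under 0.05. Snord118 stands at 2.19, the 12 filled H/ACA genes run from 0.29 to 1.27, and most C/D genes lie near 0.

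The gene with the largest change of all 54 was a C/D member. Snord118, known as U8, is needed for processing of large-subunit ribosomal RNA in vertebrates, and is the 1 gene of the 54 outside the span of a host. Its log2 signal was 8.80, 8.64, 9.24 and 8.66 in mutants, 7.94, 7.44, 7.25 and 7.72 in heterozygotes, and 6.88, 6.60, 6.46 and 6.66 in wild-type mice. The 3 genotypes lay apart, with mutants 4.55-fold above wild type (log2 fold change 2.19, SE 0.15, limma adjusted p = 9.67e-06). Without mutant replicate 3, which had its highest value, the log2 fold change was 2.05 (limma adjusted p = 9.61e-06).

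Snord15b and Snord15a, copies of the methylation guide U15 within the ribosomal protein gene Rps3, both rose. Snord15b was at 9.43, 9.73, 9.50 and 9.55 in mutants, 9.22, 9.19, 9.04 and 8.70 in heterozygotes and 8.50, 8.75, 8.93 and 8.67 in wild-type mice. The mutants were above every control array and the controls overlapped (mutant over wild type 1.79-fold, log2 fold change 0.84, SE 0.11, limma adjusted p = 0.000804). Snord15a changed less, with 6.62, 6.59, 6.78 and 6.66 in mutants, 6.67, 6.47, 6.43 and 6.56 in heterozygotes and 6.44, 6.44, 6.30 and 6.36 in wild-type mice (log2 fold change 0.28, SE 0.06, limma adjusted p = 0.015).

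The other 4 called C/D genes changed by less than Snord15b. Snord82, which shares the host Ncl with Snora75, was at 9.50, 9.50, 9.77 and 9.53 in mutants, 9.37, 9.05, 9.34 and 9.46 in heterozygotes and 9.17, 9.27, 9.08 and 9.14 in wild-type mice (log2 fold change of mutant over wild type 0.41, limma adjusted p = 0.00992). Mutants were above all controls. Snord49b had a log2 fold change of 0.40 (limma adjusted p = 0.0178), with 9.53 to 9.88 in mutants, 9.37 to 9.45 in heterozygotes and 9.13 to 9.62 in wild-type mice, so that 1 wild-type mouse reached into the mutant range. It lost the call in 3 of 21 alternative settings, which were the loss of wild type replicate 2 or 3 and a fit of just these groups (adjusted p up to 0.0566). Snord87 (0.37, limma adjusted p = 0.0438) and Snord85 (0.28, limma adjusted p = 0.0411) lay close to the threshold and lost the call in 13 and 12 of 21 alternative settings. The C/D count was 4 without wild type replicate 2 and 4 without wild type replicate 3.

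The 24 C/D genes that did not pass had log2 fold changes from -0.49 to 0.30 in mutants against wild-type mice. Snord104, with the highest mean C/D signal, was at 12.36 to 12.69 in mutants, 12.42 to 12.55 in heterozygotes and 12.34 to 12.46 in wild-type mice (log2 fold change 0.20, limma adjusted p = 0.0908). It was called higher in 1 of 21 alternative settings (limma adjusted p = 0.00936). Snord58b, with the lowest mean C/D signal, was at 3.50 to 4.10 in mutants, 3.61 to 3.84 in heterozygotes and 3.75 to 4.06 in wild-type mice, a range in which the arrays measure little. Both overlapped between genotypes. Chosen after its values were seen, Snord61 had the most negative change, at 4.61, 4.60, 4.35 and 4.72 in mutants, 4.61, 4.90, 4.67 and 4.76 in heterozygotes and 4.79, 5.06, 4.78 and 5.63 in wild-type mice (log2 fold change -0.49, limma adjusted p = 0.0604). Its mutants were all below wild type, and 9.4% of all genes showed that. Snord14e, in the heat shock protein gene Hspa8, varied most between mice of a genotype (pooled SD 0.54), at 8.13 to 9.43 in mutants, 9.30 to 10.37 in heterozygotes and 8.25 to 9.57 in wild-type mice.

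The Cajal body genes did not move alike. Scarna17, whose human counterpart guides modification of U12 and U4 spliceosomal RNA, was at 11.71, 11.87, 11.85 and 11.58 in mutants, 11.34, 11.01, 11.27 and 11.26 in heterozygotes, and 11.14, 11.19, 11.10 and 11.11 in wild-type mice. The mutants were above every control (mutant over wild type 1.53-fold, log2 fold change 0.62, SE 0.08, limma adjusted p = 0.000523). Scarna13, within the noncoding host Snhg10, was at 9.39, 9.28, 9.41 and 9.40 in mutants, 9.31, 9.23, 9.40 and 9.05 in heterozygotes and 9.10, 9.06, 9.09 and 9.08 in wild-type mice. Mutants and wild type were apart by a small step (log2 fold change 0.29, SE 0.07, limma adjusted p = 0.0157), which lost the call with array weights (adjusted p = 0.0598). Scarna8, within the augmin subunit gene Haus6, overlapped between genotypes, at 6.74 to 6.98 in mutants, 6.65 to 6.92 in heterozygotes and 6.79 to 7.05 in wild-type mice (log2 fold change -0.11, limma adjusted p = 0.423).

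**Figure D3:**
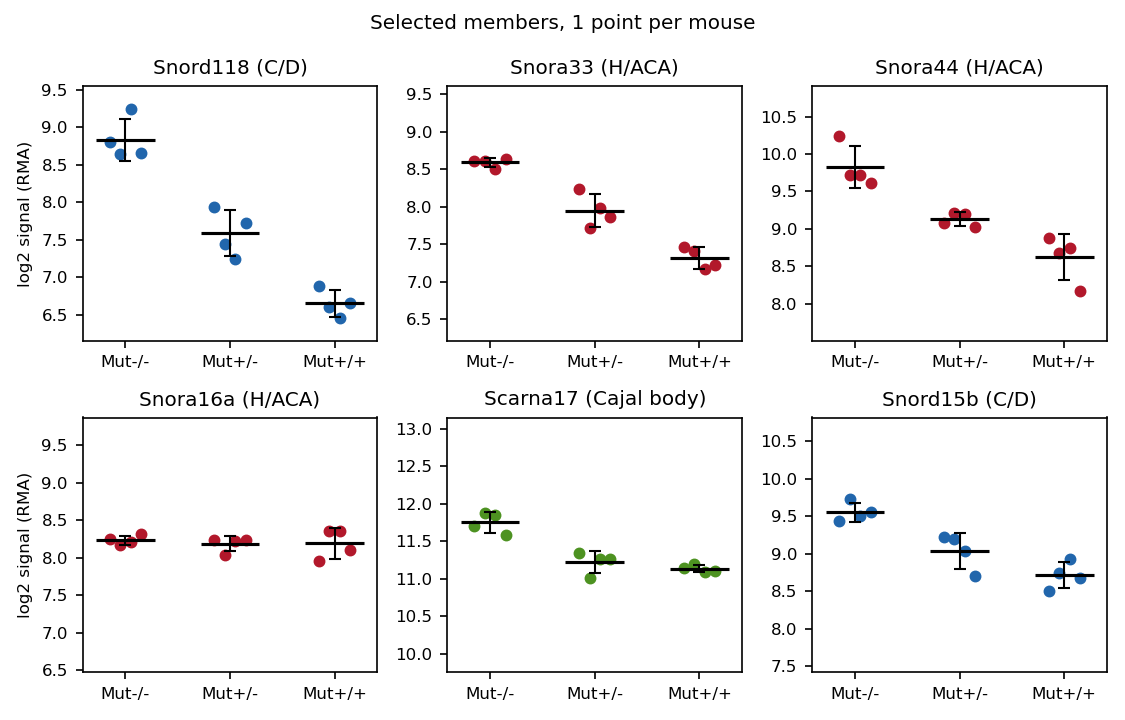
Log2 signal (vertical axes) of 6 genes, 1 point per mouse, with mean (line) and SD (bar) for each genotype; every panel spans the same number of log2 units. Snord118, Snora33 and Snora44 step down from mutants through heterozygotes to wild type, Scarna17 and Snord15b are highest in mutants, and Snora16a stays at 7.95 to 8.36 on all 12 arrays.

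Heterozygotes were set against each of the other genotypes to see where they stand, and these comparisons share arrays with the one above. In mutants against heterozygotes 6 of the 54 genes rose and 0 fell (limma), while 1.07% of all genes rose and 1.46% fell. Here 20 of the 54 had an unadjusted p under 0.05, as had 3072 of all 19934 genes. The risers were Snora44 (log2 fold change 0.69, limma adjusted p = 0.0263), Snora33 (0.64, limma adjusted p = 0.00434), Snora31 (0.36, limma adjusted p = 0.0217), Snord118 (1.25, limma adjusted p = 0.00133), Snord15b (0.51, limma adjusted p = 0.0316) and Scarna17 (0.53, limma adjusted p = 0.00354). Without mutant replicate 3 the count was 7, with all 6 among them, beside 1.06% of all genes rising. All 4 mutants lay above all 4 heterozygotes in 5 of 20 H/ACA, 9 of 31 C/D and 1 of 3 Cajal body genes, beside 4.04% of all genes. The calls of Snora44, Snora31 and Snord15b against heterozygotes ended in 4, 5 and 6 of 21 alternative settings. For Snora44 each of these was the loss of 1 heterozygote, for Snora31 3 were, and for Snord15b 2 were, the others being the loss of mutant replicate 2 or 4 or wild type replicate 2 and a fit of just these groups. The H/ACA count was 1 without heterozygote replicate 1, 2 or 4.

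In heterozygotes against wild-type mice Snora33 rose (log2 fold change 0.63, limma adjusted p = 0.0299) and Snord118 rose (0.94, limma adjusted p = 0.0392), 2 of the 54 beside 0.0652% of all genes. Again 20 of the 54 had an unadjusted p under 0.05, as had 2255 of all 19934 genes. Of the 54, 0 were called lower, beside 0.0702% of all genes. The calls of Snora33 and Snord118 ended in 7 and 9 of 21 alternative settings, among them the loss of heterozygote replicate 1 or 4 or of wild type replicate 2, 3 or 4. The median log2 fold change of heterozygote over wild type was 0.23 for H/ACA, -0.03 for C/D and 0.08 for Cajal body genes. That of mutant over heterozygote was 0.15, 0.14 and 0.12. All 4 heterozygotes lay above all 4 wild-type mice in 9 of 20 H/ACA genes and 1 of 31 C/D genes, beside 3.18% of all genes. Every mutant was above every heterozygote, and every heterozygote above every wild-type mouse, in Snora33, Snora44, Snora31 and Snord118, which is 4 of 54 genes beside 0.166% of all genes.

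The C/D genes that rose included most of the long ones. In RefSeq the H/ACA genes are 61 to 205 bases long (median 125) and the C/D genes 45 to 148 (median 68). Of the 4 C/D genes of 100 bases or more, Snord118 with 137 bases, Snord15b with 145 and Snord15a with 148 rose in mutants against wild-type mice, while Snord22 with 126 did not pass (log2 fold change 0.09). Of the 27 shorter C/D genes 4 rose. Across the 31 C/D genes, length and log2 fold change had a Pearson r of 0.51 and a Spearman rho of 0.24, and across the 20 H/ACA genes -0.13 and -0.30. These are descriptions over genes that share the 12 arrays, with Snord118 weighing on the first value, and the length class was chosen after the changes were seen. Length is also tied to class and to how many bases a probe set can cover, and its part in the result was not tested.

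**Figure D4:**
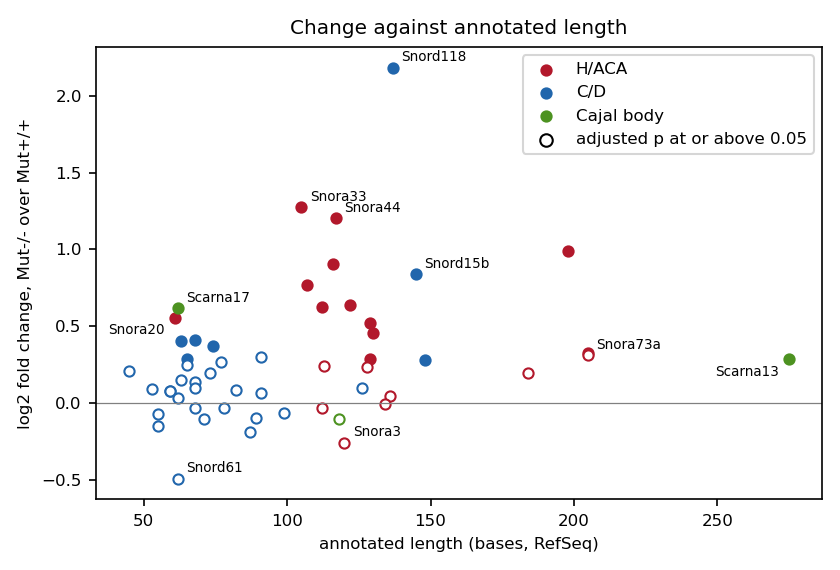
Annotated length in bases (horizontal axis, RefSeq) against log2 fold change of mutant over wild type for the 54 genes, coloured by class and filled where the adjusted p was under 0.05. C/D genes under 100 bases lie between -0.49 and 0.41, and the H/ACA genes spread from -0.26 to 1.27 with no rise along the length axis.

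Of the 54 genes 53 lie within the span of another gene in RefSeq, and for 28 of them that host was also measured, 24 hosts in all. Of these hosts 14 rose and 0 fell in mutants against wild-type mice (limma), 16 had an unadjusted p under 0.05, and their median log2 fold change was 0.28. The share of all genes that rose was 2.96%. All 14 apart from Gas5, Ncl and Tpt1 encode ribosomal proteins or elongation factors. In the 28 pairs both rose in 8, the host alone in 10, the small RNA alone in 2 and neither in 8. Host and small RNA changes had a Pearson r of 0.16 and a Spearman rho of 0.12 over the 28 pairs, as a description over genes on the same arrays. The probe sets of a small RNA could also read unspliced transcripts of the host, and this was not tested.

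Snora33 and its host moved together. Rps12, a ribosomal protein gene, was at 10.81 ± 0.12 in mutants, 10.19 ± 0.08 in heterozygotes and 9.82 ± 0.13 in wild-type mice on the log2 scale (SD, n = 4 each), with a log2 fold change of mutant over wild type of 0.99 (limma adjusted p = 1.57e-05), against 1.27 for Snora33. Tpt1 rose by 0.32 on the log2 scale (limma adjusted p = 0.0011) and Snora31 by 0.63. Rps3 rose by 0.57 (limma adjusted p = 0.000332), between its guides Snord15b and Snord15a, which rose by 0.84 and 0.28. Ncl rose by 0.23 (limma adjusted p = 0.0472, lost in 14 of 21 alternative settings), with Snora75 at 0.91 and Snord82 at 0.41.

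In other pairs the small RNA or its host passed the test and the other did not. Srcap was at 10.14 ± 0.06 in mutants, 10.22 ± 0.06 in heterozygotes and 10.26 ± 0.06 in wild-type mice (SD, n = 4 each), a log2 fold change of -0.12 of mutant over wild type (limma adjusted p = 0.16), beside 0.77 for Snora30. Tcp1 had 0.03 (limma adjusted p = 0.799) beside 0.56 for Snora20. In Rps3a1, a ribosomal protein gene, the host was the one that passed. It was at 9.43 ± 0.23 in mutants, 8.73 ± 0.04 in heterozygotes and 8.43 ± 0.25 in wild-type mice (SD, n = 4 each). It rose by 1.002 on the log2 scale (limma adjusted p = 0.000341), while its guides Snord73a and Snord73b had changes of -0.03 and -0.11 (limma adjusted p = 0.817 and 0.8). Rpl27a likewise rose by 0.46 (limma adjusted p = 0.000946) and Snora3 had -0.26. Rplp2, Kansl2 and Haus6, hosts of Snora52, Snora2b and Scarna8, did not pass, and neither did those members.

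**Figure D5:**
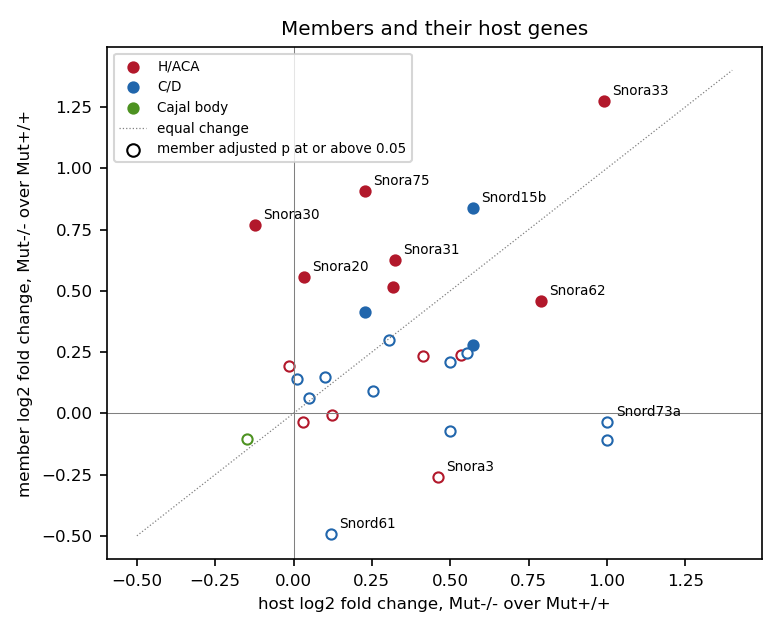
Log2 fold change of mutant over wild type for 28 small RNAs (vertical axis) against that of the measured host (horizontal axis), coloured by class, filled where the small RNA had an adjusted p under 0.05, with a dotted line of equal change. Snora33 lies near the line, Snora30 far above it, and Snord73a at the far right near a change of 0.

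The start regions of such host genes can hold a run of pyrimidines. Such a run at the very start of the transcript is the mark of messenger RNAs whose translation follows nutrient supply. Shown here are the start regions of Rps12, which rose along with Snora33, of Snhg12, which holds the called Snora44 and the uncalled Snora16a, of Srcap, which did not pass while Snora30 rose, and of Rpl27a, which rose while Snora3 did not pass. They are taken from RefSeq (GRCm38.p6), from 20 bases before to 30 bases after the annotated start, with the longest run of C and T on the gene's strand in capitals.
Rps12, chr10:23787180-23787229, minus strand: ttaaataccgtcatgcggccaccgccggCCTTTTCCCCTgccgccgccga
Snhg12, chr4:132308658-132308707, plus strand: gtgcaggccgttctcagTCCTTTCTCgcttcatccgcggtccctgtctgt
Srcap, chr7:127511963-127512012, plus strand: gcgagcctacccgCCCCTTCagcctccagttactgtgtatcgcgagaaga
Rpl27a, chr7:109519175-109519224, plus strand: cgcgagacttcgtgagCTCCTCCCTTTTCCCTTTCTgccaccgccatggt
The run is 11 bases long in Rps12, 9 in Snhg12, 7 in Srcap and 20 in Rpl27a. Relative to the annotated start it begins at base 9 in Rps12, -3 in Snhg12, -7 in Srcap and -4 in Rpl27a. Runs at least that long are found in 6.19%, 12.6%, 28.6% and 0.438% of all 32851 start windows of the table. A run of 8 or more was present in 13 of the 32 hosts with a window (40.6%) and in 19.0% of all windows. Runs were counted wherever they lay in the window, also before the annotated start. The match is one of letters and says nothing of use in these kidneys.

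Where a host holds more than 1 of the genes, the small RNAs can be compared with each other in the same mice. Such pairs were found in 10 hosts. The small RNA with the higher change in mutants against wild-type mice was put first, so each gap change is above 0 by construction. In Snhg12, Snora44 exceeded Snora16a by 1.59 ± 0.29 on the log2 scale in mutants and by 0.43 ± 0.36 in wild-type mice (SD, n = 4 each), as a difference of probe set signals whose own zero has no meaning. The gap thus grew by 1.16 in mutants. Snora16a itself was at 8.25, 8.17, 8.21 and 8.31 in mutants, 8.24, 8.04, 8.22 and 8.24 in heterozygotes and 7.95, 8.35, 8.36 and 8.10 in wild-type mice, with a log2 fold change of 0.04 (95% interval -0.14 to 0.23). The gap also grew by 0.56 between Snord15b and Snord15a in Rps3 and by 0.37 between Snord49b and Snord49a in 2410006H16Rik. Between Snora75 and Snord82 in Ncl it grew by 0.49, but mutants and wild-type mice overlapped (exact permutation p = 0.0571). In Snhg12, Rps3 and 2410006H16Rik all mutants were apart from all wild-type mice. Each of these 3 had a two-sided exact permutation p of 0.0286, the smallest that 4 against 4 mice can give. Adjusted over the 10 pairs it was 0.0952, so none passed. Snora73b and Snora73a in Snhg3 showed a gap change of 0.01 (exact permutation p = 0.771).

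With all 12 arrays, none of the genes of the proteins that carry these RNAs passed the test in mutants against wild-type mice. The lists were chosen with earlier results of these data known. For mutants against wild-type mice, limma called 0 of 6 H/ACA particle proteins, 0 of 5 C/D particle proteins and 0 of 11 assembly factors. Of all genes 2.96% rose and 6.69% fell. An unadjusted p under 0.05 was found for 2, 1 and 1 genes of these lists, and for 4867 of all 19934 genes. In lists this short, 0 calls do not show that the genes were unchanged. Dkc1, the pseudouridine synthase dyskerin, had a log2 fold change of -0.34 (limma adjusted p = 0.0675) and was called lower without mutant replicate 2 or wild type replicate 1 (adjusted p = 0.0463 and 0.0425). Fbl, the methyltransferase fibrillarin, had 0.15 (limma adjusted p = 0.145), and the assembly factor gene Nufip1 0.14 (limma adjusted p = 0.185). Of 16 genes of Cajal bodies and small nuclear particle maturation 1 fell, a share of 6.25% close to the 6.69% of all genes that fell. It was Tgs1, the enzyme that methylates the cap of small nuclear and some nucleolar RNAs (-0.25, limma adjusted p = 0.0169, lost without wild type replicate 2 or 4). Of 34 genes of ribosomal RNA synthesis and processing 2 rose (5.88%) and 3 fell (8.82%), beside 2.96% and 6.69% of all genes, and the falls are thus near the share of all genes. The largest changes were in Taf1d of the polymerase I selectivity factor (-0.44, limma adjusted p = 0.00249), Pes1 (0.26, limma adjusted p = 0.0165) and Imp4 (-0.25, limma adjusted p = 0.0132). Taf1d was not called with the mean of its probe sets (-0.09, adjusted p = 0.562). Among 6 noncoding hosts Gas5 (0.55, limma adjusted p = 0.000525) and Snhg5 (0.24, limma adjusted p = 0.0479) rose, beside 2.96% of all genes. The 6 changes ran from -0.45 to 0.55, with a median of 0.16. However, Gas5 was not called with the mean of its probe sets (0.18, adjusted p = 0.0819) and Snhg5 lost its call in 11 of 21 settings. Snord47, a C/D gene of Gas5, had a log2 fold change of 0.25 (limma adjusted p = 0.125).

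Other small RNAs outside the 3 symbol families also moved. Of 15 such genes 8 rose and 0 fell in mutants against wild-type mice, beside 2.96% of all genes that rose. Unadjusted, 9 had a p under 0.05, as had 4867 of all 19934 genes. Without mutant replicate 3 the count was again 8, of which 7 were in both, beside 2.52% of all genes rising. Vaultrc5, a vault RNA, had log2 signals of 9.53 to 9.98 in mutants, 8.85 to 9.43 in heterozygotes and 8.37 to 8.78 in wild-type mice (log2 fold change of mutant over wild type 1.14, limma adjusted p = 0.000269). Rnu12, the U12 spliceosomal RNA that Scarna17 is known to modify in human cells, was at 7.72 to 7.81 in mutants, 7.18 to 7.81 in heterozygotes and 6.79 to 7.26 in wild-type mice (0.77, limma adjusted p = 0.00342). Rnu3a, a copy of the C/D RNA U3 of ribosomal precursor cleavage that does not carry a Snord symbol, was at 7.28 to 7.64 in mutants, 6.66 to 7.07 in heterozygotes and 6.60 to 6.96 in wild-type mice (0.69, limma adjusted p = 0.00177). In these 3 genes mutants were apart from wild type. Of 300 microRNA precursors 7 rose and 7 fell (2.33% each), beside 2.96% of all genes that rose and 6.69% that fell. The largest changes were in Mir6516 (0.58, limma adjusted p = 0.000182), Mir10a (0.56, limma adjusted p = 0.0416, lost in 13 of 20 settings) and Mir32 (-0.55, limma adjusted p = 0.0292, lost in 8 of 21). Of 5 nuclear long noncoding RNAs Firre rose (0.24, limma adjusted p = 0.0109), beside 2.96% of all genes.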

How the data were processed

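Total RNA of whole kidneys was extracted with a column kit and labelled with a whole-transcript kit, per the labels' protocols. Such columns can retain short RNAs incompletely, and recovery per mouse was not measured. The labelling text names a human array, while the descriptions name the mouse array MoGene-1_0-st-v1, whose probe sets matched mouse genes. According to the submitters' processing notes, the log2 values per probe set that the authors deposited come from RMA, run with version 1.2.1 of Affymetrix Expression Console. RMA removes background, makes array distributions equal and compresses differences near background. No source used here names a genome build for the probe sets. Sample numbers run group by group, so any effect of processing order cannot be told apart from genotype. The arrays are those of separate mice, and 4 per group limit the precision.

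Of 35552 probe sets 21785 carried 1 gene symbol. The brightest probe set of each gene gave 19934 genes. In Scarna17, Snora30 and Snord118 the 2 probe sets of the gene held identical values on every array, and in Snora21, Snora3 and Snord58b they differed by at most 0.249. Another 41 probe sets carry an Snora or Snord symbol together with further symbols and were left out of the gene tests. limma 3.58.1 in R 4.3.3 fitted all 3 groups (9 residual and 4.41 prior degrees of freedom), with Benjamini-Hochberg adjustment over all 19934 genes, and called genes at an adjusted p under 0.05. The script was tested on simulated data. Same-host pairs were tested by two-sided exact permutation (scipy 1.17.1). Figures were drawn with matplotlib 3.10.9 in Python 3.11.15. A host is the shortest gene of the RefSeq table (GRCm38.p6) whose span contains the small RNA; the table gives no strand, so strand was not required, which departs from the plan. Sequences are those of RefSeq; the tables used held sequences for 0 of the 54 small RNAs.

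Genes were named by rule: every Scarna gene; up to 8 called rises and falls per class in mutant against wild type; up to 4 in the other comparisons; the highest and lowest mean signal per class; their hosts; and up to 3 called genes, or the 1 with the smallest p, from each list. Members named beyond the rule were chosen after their values were seen. Members and lists were chosen with earlier results of these data known. Alternatives were a block for the replicate number, the fit without each array, a minimum group mean of 6, single probe sets, averaged probe sets, weighting of arrays, a trended and robust prior, a fit of just the groups compared, median centring, quantile normalisation and pooled controls.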

Additional observations from a re-analysis of the deposited data

Results flagged for a closer look

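Of 75 groups of 4 arrays examined for an array far from the other 3, 3 were picked out, and chance picks about 1 in 20. Mutant replicate 4 was the highest mutant for Scarna8, at 6.981, with the others at 6.744 to 6.771. Mutant replicate 3 was the lowest mutant for Snora33, at 8.5, with the others at 8.613 to 8.635. The same array was the highest mutant for Snord82, at 9.774, with the others at 9.504 to 9.526. Without mutant replicate 3 the log2 fold change of mutant over wild type was 1.30 for Snora33 (limma adjusted p = 2.64e-05). Mutant replicate 3 is also the array with adrenal transcripts and had the lowest array weight, 0.386, and whether that bears on Snord82 or Snora33 was not tested.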

How the results depend on the processing

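In mutants against wild-type mice all class medians kept their sign and 13 of the named small RNAs kept their call in every alternative, namely Snora33, Snora44, Snora74a, Snora75, Snora30, Snora69, Snora31, Snora20, Snord118, Snord15b, Snord82, Snord15a and Scarna17. Against the mean of both controls the median log2 fold change was 0.322 for H/ACA and 0.204 for Cajal body genes. The C/D median was 0.150 over genes whose highest group mean reached 6, a setting in which Snord58b was not tested. With only the groups compared in the fit 4 C/D genes rose, and with array weights 1 Cajal body gene. In heterozygotes against wild-type mice the H/ACA count was 6 with array weights, beside 1 in the main fit. In the same comparison the C/D count was 0 with a trended and robust prior. The C/D median there was 0.0446 under that same minimum, opposite in sign to the main value. Counts in this section are given without the share of all genes called in the same fit. They thus show only how the calls moved between fits.

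The replicate numbers showed no sign of pairing the mice, though this check cannot exclude it. Same-numbered arrays of different genotypes had correlations of -0.239 to 0.168, with 1 of 12 over 0.1. Arrays of other numbers had -0.201 to 0.263. With the number as a block the counts in mutants against wild-type mice were 10 H/ACA, 5 C/D and 2 Cajal body genes, 1 member was called lower, and in heterozygotes against wild-type mice 0 H/ACA and 0 C/D genes were called.

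Leaving out each array in turn gave 10 to 12 H/ACA and 4 to 7 C/D rises in mutants against wild-type mice, 0 to 2 members called lower (2 without wild type replicate 1, 1 without wild type replicate 3), and medians of 0.349 to 0.426 and 0.0871 to 0.169. In mutants against heterozygotes it gave 1 to 3 H/ACA and 1 to 4 C/D rises, with an H/ACA median of 0.107 to 0.201. The C/D count was 1 without heterozygote replicate 3 or 4 or wild type replicate 2, and 4 without wild type replicate 4. In heterozygotes against wild-type mice it gave 0 to 2 H/ACA and 0 to 1 C/D rises, and a C/D median of -0.0349 to 0.0297, above 0 without wild type replicate 2. Single genes close to 0 in mutants against wild-type mice ranged from -0.0331 to 0.0278 for Snora52, -0.069 to 0.00474 for Snora2b, -0.00896 to 0.0884 for Tcp1 and -0.0237 to 0.0673 for Kansl2. Snora52 changed sign to 0.00396 and 0.0278 without mutant replicate 3 or 4 and to 0.0116 and 0.0133 without wild type replicate 1 or 2. Snora2b changed to 0.00474 without wild type replicate 2, Tcp1 to -0.00896 without mutant replicate 1 and Kansl2 to -0.0237 without wild type replicate 3. The cause of these changes was not tested. Differences between faint probe sets, such as Snord58b, are limited by signal near background.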

Other observations

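Some small nucleolar RNAs share their probe sets with other symbols and are described here from a fit over all 35552 probe sets. This fit was chosen after seeing the data. There were 8 probe sets with an H/ACA symbol among several, 7 of them distinct. Their log2 fold changes of mutant over wild type ran from -0.12 to 0.63, with a median of -0.05. An unadjusted p under 0.05 was found for 2 of the 8. By limma at an adjusted p under 0.05, 1 rose in mutants against wild-type mice, beside 3.87% of all probe sets. This riser is annotated to both Snora24 and its host Snhg8, so the signals cannot be told apart. Its log2 signal was 6.57, 6.66, 6.5 and 6.53 in mutants, 6.18, 6.10, 6.30 and 6.24 in heterozygotes, and 5.97, 6.00, 5.87 and 5.91 in wild-type mice. The 3 genotypes lay apart, with a log2 fold change of mutant over wild type of 0.63 (SE 0.06, limma adjusted p = 0.000131) and of mutant over heterozygote of 0.36 (limma adjusted p = 0.00677).

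Snord116, the brain-enriched C/D cluster of the Prader-Willi locus, had 24 such probe sets at mean log2 signals of 5.46 to 5.99. Of these 18 held identical values on all 12 arrays, so the 24 give 7 distinct measurements. Limma called 0 of them in mutants against wild-type mice, and 0 had an unadjusted p under 0.05, with log2 fold changes from 0.11 to 0.24. Of 9 probe sets with another C/D symbol, 8 of them distinct, 0 were called and 1 had an unadjusted p under 0.05, with log2 fold changes from -0.18 to 0.33.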
